A study of Mus musculus with 4 samples.

Results

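The microRNAs mmu-miR-146a, mmu-miR-146b, mmu-miR-155 and mmu-miR-210, known as responders to inflammation and hypoxia, were followed in sequenced small RNA of mouse embryonic fibroblasts (MEFs, primary cells grown from mouse embryos). They were chosen by name, with or without a star, the mark of the passenger strand of a hairpin. Of 8 such names 5 were listed, out of 508 microRNAs in all: the 4 guide strands and miR-146b*. The 3 other star names were in no library's list. The design held 4 libraries in 4 groups of 1 library each. They were shLuc.1309;ROSA-rtTA cells with doxycycline (rtTA +dox), the same cells without it (rtTA -dox), shLuc.1309 cells with doxycycline (no rtTA +dox) and shLuc.1309 cells without it (no rtTA -dox). All carried a transgene for a short hairpin RNA (shRNA) whose target, luciferase, is absent from mice, so the controls held it too. rtTA is a transactivator that switches on a tetracycline-responsive promoter when doxycycline (dox, a tetracycline antibiotic) is present, and ROSA names the broadly active locus that carries it. The dose and duration of dox and the number of embryos behind a library are not given in the labels. The labels name no inflammatory agent and no low oxygen in any group, and give 24 degrees C as the growth condition of all 4, with no further detail.

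miR-146a is transcribed in response to NF-kB signalling from Toll-like and interleukin receptors. Both miR-146a and miR-146b repress the adaptors Traf6 and Irak1 of that pathway, which for miR-146a makes a negative feedback. miR-155 is cut from a long noncoding RNA that activated macrophages and lymphocytes induce, and represses the signalling inhibitors Socs1 and Inpp5d. miR-210 is the microRNA most widely induced by the hypoxia-inducible factors, and represses the iron-sulphur cluster scaffold Iscu and with it mitochondrial respiration.

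The mature strands are shown because their seeds (bases 2 to 8, in capitals), which pair with target transcripts, set the families, and because base composition matters for the ratios given further on. They are RefSeq sequences on the GRCm38.p6 build, 5′ to 3′, and equal the deposited ones with U for T.
miR-146a: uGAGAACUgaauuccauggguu
miR-146b: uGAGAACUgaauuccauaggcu
miR-146b*: gCCCUAGGgacucaguucuggu
miR-155: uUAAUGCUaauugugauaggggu
miR-210: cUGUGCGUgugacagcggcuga

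miR-146a and miR-146b share the seed GAGAACU, and no other listed microRNA had it. They differ at 2 of 22 bases, G18A and U21C (miR-146a base first, positions from 1 at the 5′ end), both outside the seed, so reads of one may have been counted for the other. No other listed microRNA had the seed of miR-155 (UAAUGCU) or of miR-210 (UGUGCGU). G made up 27.3% of the bases of miR-146a, 22.7% of miR-146b, 30.4% of miR-155 and 40.9% of miR-210.

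The hairpins show which arm was listed (capitals mark each listed strand).
miR-146a hairpin: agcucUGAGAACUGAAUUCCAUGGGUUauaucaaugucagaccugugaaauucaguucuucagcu
miR-146b hairpin: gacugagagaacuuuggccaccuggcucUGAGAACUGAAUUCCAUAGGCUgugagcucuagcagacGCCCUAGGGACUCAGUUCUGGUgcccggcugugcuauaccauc
miR-155 hairpin: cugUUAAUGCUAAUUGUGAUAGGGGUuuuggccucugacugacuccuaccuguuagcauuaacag
miR-210 hairpin: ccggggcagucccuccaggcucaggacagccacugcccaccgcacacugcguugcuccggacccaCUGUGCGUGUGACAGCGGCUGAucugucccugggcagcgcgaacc

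The guide came from the 5′ arm in miR-146a, miR-146b and miR-155 and from the 3′ arm in miR-210. The 4 hairpins lie on different chromosomes. That of miR-155 lies at chr16:84714140-84714204 on the plus strand, in an exon of the long noncoding gene Mir155hg. That of miR-146b lies at chr19:46342762-46342870 on the plus strand, in an intron of Mfsd13a. Those of miR-146a (chr11:43374397-43374461, minus strand) and miR-210 (chr7:141221384-141221493, minus strand) lie outside other annotated genes, 11021 bases from Gm12148 and 2726 bases from Rassf7.

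The libraries held 7690978 (rtTA +dox), 8780954 (rtTA -dox), 6545093 (no rtTA +dox) and 6383594 (no rtTA -dox) counts. Levels are given as CPM, counts per 1000000 endogenous microRNA counts, which leaves out the shRNA. The shRNA took 2.38% of all counts in rtTA +dox and 0.0725% to 0.0786% in the other 3 libraries. The 9 listed fibroblast markers (among them miR-21, miR-22 and miR-143) summed to between 446150 and 462142 CPM. The 7 blood and immune markers, called blood markers below, summed to 82.8 (rtTA +dox), 101 (rtTA -dox), 85.5 (no rtTA +dox) and 82.8 (no rtTA -dox) CPM, with none at 0. The 2 listed endothelial markers summed to between 120 and 175 CPM and the epithelial ones to between 5.49 and 20.3 CPM. Ratios are of CPM, with exact 95% intervals that cover counting error alone. A microRNA was called higher or lower when its ratio reached 2-fold and its interval excluded equality, among the 372 microRNAs whose mean was at least 3.14 CPM. Each group being 1 library, no difference could be set against replicates, no p-value was computed, and what is compared is libraries rather than conditions.

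None of the 4 guide strands was called in any of the 4 comparisons. The share of all 372 microRNAs called in either direction was 9.95% for dox in rtTA cells, 1.61% for dox without rtTA, 16.7% for rtTA with dox and 1.88% for rtTA without dox. With 4 members, none called is near that background. The levels kept 1 order in each library, miR-155, then miR-210, miR-146a and miR-146b, all being reads of 22 or 23 bases. miR-146a and miR-146b overlapped in their counting intervals in no rtTA +dox and were apart in the other 3 libraries.

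**Figure D1:**
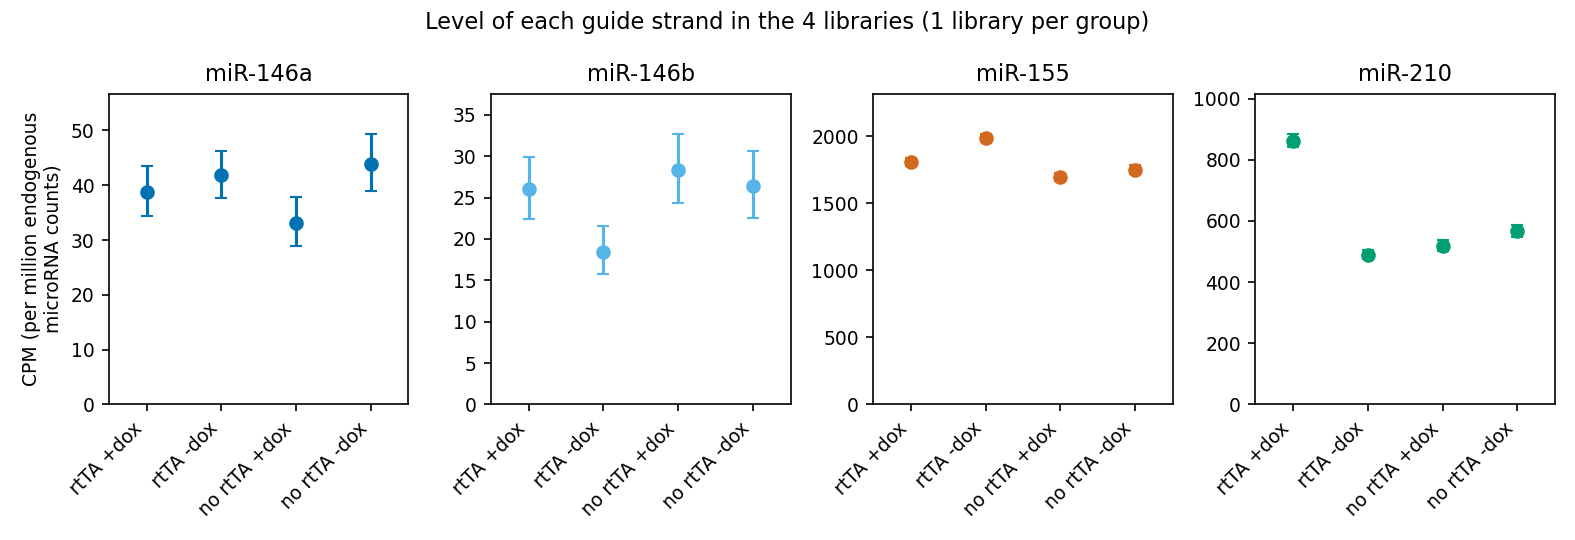
CPM (counts per 1000000 endogenous microRNA counts, axes from 0) of each guide strand in the 4 libraries; points are single libraries and bars the exact Poisson 95% intervals, counting error alone. miR-210 stood at 863 CPM in rtTA +dox and between 490 and 567 CPM elsewhere, while miR-155 stayed between 1695 and 1986 CPM.

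mmu-miR-155 was the most abundant of the 4 and the steadiest. It had 13586 counts in rtTA +dox, 17428 in rtTA -dox, 11087 in no rtTA +dox and 11162 in no rtTA -dox. These are 1810, 1986, 1695 and 1750 CPM in that order of libraries, and ranks 65, 58, 71 and 66 among the listed microRNAs. The highest library, rtTA -dox, lay 1.17-fold above the lowest, no rtTA +dox, and only 5.11% of the 372 microRNAs had a smaller such fold, against a median fold of 1.58. Counting error widens this fold for microRNAs with few counts, and the 372 were not matched to miR-155 in depth. At this depth small ratios lay outside counting error, though the smallest did so under some scalings alone. miR-155 was 0.911-fold with dox in rtTA cells (0.891 to 0.932) and 0.969-fold with dox without rtTA (0.944 to 0.995). It was 1.07-fold with rtTA under dox (1.04 to 1.09) and 1.14-fold with rtTA without dox (1.11 to 1.16). The interval for dox without rtTA spanned equality under DESeq2 factors, without the 10 most abundant microRNAs in the total and with a trend on G content subtracted (described with miR-210), and that for rtTA with dox did so with the trend subtracted. The ratio farthest from equality was thus that between the libraries without dox, in which the shRNA was not induced. In mean CPM it stood between miR-28* (1915) and miR-376b (1784).

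The summed level of the blood markers was also highest in rtTA -dox, the library with most miR-155. So was that of the epithelial markers, at 20.3 CPM against 10.9 in rtTA +dox, 7.65 in no rtTA +dox and 5.49 in no rtTA -dox. No epithelial marker passed the floor, and rtTA -dox was the only library in which 1 of the 7 was at 0. Of the blood markers 5 of 7 passed the floor, and none was called in any comparison. In rtTA without dox 4 of these 5 lay above 0, with a median log2 ratio of 0.38 (-0.07 over all 372). The other, miR-486, was at -0.29. The highest, miR-142-5p, made in blood cells, was at 0.98. This became a call of higher under TMM (1.01), DESeq2 (1.05), the G trend (1.05) and, barely, the total without the 10 most abundant. miR-142-3p, the other arm, was at 0.38 (-0.13 to 0.90) and miR-451 at 0.43 (-0.37 to 1.27), with intervals that spanned 0. miR-223, at 0.28 (0.04 to 0.52), excluded it. The part of blood or epithelial cells in the miR-155 values was not tested, and in such bulk RNA fewer cells of a type cannot be told apart from less RNA per cell.

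mmu-miR-146a was a low-abundance microRNA in these fibroblasts, with 291 counts in rtTA +dox, 367 in rtTA -dox, 217 in no rtTA +dox and 280 in no rtTA -dox. These are 38.8, 41.8, 33.2 and 43.9 CPM in the same order, so that no rtTA +dox was the low library. Its 95% interval there, 28.9 to 37.9 CPM, lay below that of no rtTA -dox (38.9 to 49.3). The ratio was 0.756 for dox without rtTA (0.630 to 0.906) and 0.927 for dox in rtTA cells (0.792 to 1.08). It was 1.17 for rtTA with dox (0.976 to 1.40) and 0.953 for rtTA without dox (0.813 to 1.12). Of these intervals that for dox without rtTA excluded equality, and under TMM, DESeq2 or the G trend that for rtTA with dox did too, at a log2 ratio of 0.30 to 0.31. Its neighbours in mean CPM were miR-190 (40.1) and miR-674* (38.9).

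mmu-miR-146b had 195 counts in rtTA +dox, 162 in rtTA -dox, 185 in no rtTA +dox and 168 in no rtTA -dox. In CPM these are 26.0, 18.5, 28.3 and 26.3, with rtTA -dox as the low library. Its ratio was 1.41 for dox in rtTA cells (1.14 to 1.74) and 0.701 for rtTA without dox (0.561 to 0.875), comparisons that share the rtTA -dox library. It was 1.07 for dox without rtTA (0.867 to 1.33) and 0.918 for rtTA with dox (0.747 to 1.13), with intervals that spanned equality. Its neighbours in mean CPM were miR-720 (27.4) and miR-486 (23.3), a blood marker.

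The pair did not keep a fixed proportion. miR-146a made up 59.9% of the counts of both in rtTA +dox (95% exact binomial interval 55.4% to 64.3%), 69.4% in rtTA -dox (65.3% to 73.3%), 54.0% in no rtTA +dox (49.0% to 58.9%) and 62.5% in no rtTA -dox (57.8% to 67.0%). Its share was lower with dox in both genotypes, and higher with rtTA both with and without dox. The log2 ratio of miR-146a minus that of miR-146b was -0.60 for dox in rtTA cells (-0.98 to -0.23) and -0.51 for dox without rtTA (-0.90 to -0.11), comparisons without a common library. The same measure was 0.44 for rtTA without dox (0.06 to 0.83) and 0.35 for rtTA with dox (-0.04 to 0.73), also without a common library. Summed over both, the family was steadier, at 64.7 (rtTA +dox), 60.3 (rtTA -dox), 61.5 (no rtTA +dox) and 70.2 (no rtTA -dox) CPM. The log2 ratio of the sum was 0.10 for dox in rtTA cells (-0.08 to 0.28), -0.19 for dox without rtTA (-0.39 to 0.01), 0.07 for rtTA with dox (-0.12 to 0.27) and -0.22 for rtTA without dox (-0.40 to -0.04). How reads that fit both were shared out is not given in the sources used here, and its part in these shares was not tested.

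The passenger strand miR-146b* was at the edge of detection, with 5 counts in rtTA +dox, 3 in rtTA -dox, 4 in no rtTA +dox and 0 in no rtTA -dox. It thus did not pass the floor and no ratio was taken. It held 2.50% of the counts of its hairpin in rtTA +dox (0.817% to 5.74%), 1.82% in rtTA -dox (0.377% to 5.22%) and 2.12% in no rtTA +dox (0.580% to 5.33%). In no rtTA -dox it held 0 of 168 counts (0% to 2.17%), where 3 counts would be a share of 1.79%. The intervals overlap throughout. Over 81 hairpins with both arms listed and at least 20 counts in each library, the median share of the star arm was 2.19%, 2.16%, 2.30% and 2.05% in the same order of libraries. Each median lay within the interval of miR-146b* in its library.

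mmu-miR-210, the hypoxia marker, had the largest CPM ratios of the members in the comparisons that hold the induced library. That is before the G trend, given further on, was subtracted. miR-210 had 6480 counts in rtTA +dox, 4301 in rtTA -dox, 3394 in no rtTA +dox and 3614 in no rtTA -dox. These are 863, 490, 519 and 567 CPM, and ranks 99, 121, 120 and 117. rtTA +dox was high (95% interval 842 to 884 CPM) and did not overlap the other libraries, which lay within 476 to 585 CPM with their intervals. The ratio was 1.76 for dox in rtTA cells (1.69 to 1.83) and 1.66 for rtTA with dox (1.60 to 1.73), comparisons that share the induced library. It was 0.916 for dox without rtTA (0.874 to 0.960) and 0.865 for rtTA without dox (0.828 to 0.905). miR-210 thus stayed under the 2-fold rule. With a threshold of 1.5-fold it was called higher in both comparisons that hold the induced library, as were 11% of the 372 microRNAs for dox in rtTA cells and 13.7% for rtTA with dox. From the highest ratio down it ranked 18 and 28 of 372 in those comparisons. Set against each other with no library total, the same counts gave 2.10 miR-155 counts per miR-210 count in rtTA +dox. This was 4.05 in rtTA -dox, 3.27 in no rtTA +dox and 3.09 in no rtTA -dox. The measure does not remove a shift with G content, which was 40.9% for miR-210 and 30.4% for miR-155. The neighbours of miR-210 in mean CPM were miR-296-3p (614) and miR-434-3p (608).

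**Figure D2:**
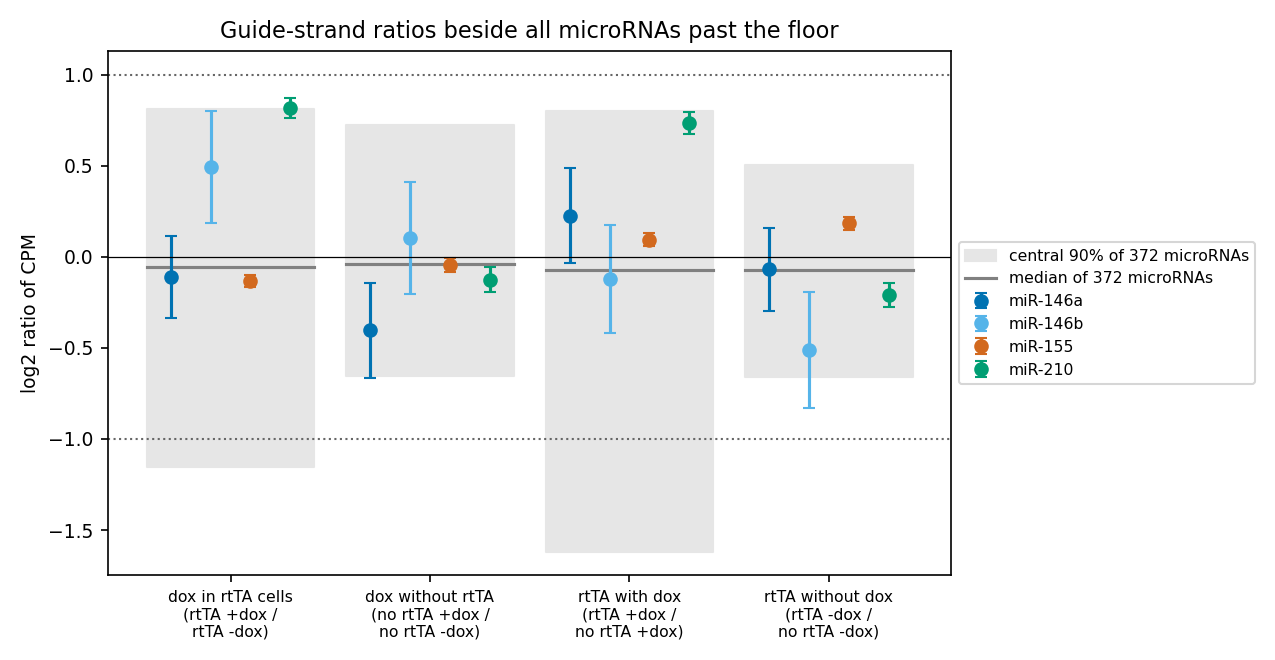
log2 ratio of CPM of each guide strand in the 4 comparisons, with exact 95% counting intervals; grey bands span the central 90% of the 372 microRNAs past the floor, grey lines their medians and dotted lines 2-fold. No guide strand reaches 2-fold, and miR-210 lies at 0.82 and 0.73 in the comparisons that hold the induced library.

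The shRNA moved with the same library: it was 31.0-fold higher in rtTA +dox than in rtTA -dox (30.3 to 31.8) and 31.5-fold higher than in no rtTA +dox (30.6 to 32.4). An endothelial marker, miR-126-5p from the gene Egfl7, was lowest in the induced library, at 14.3 CPM in rtTA +dox against 32.3 in rtTA -dox. It had 55.0 in no rtTA +dox and 28.2 in no rtTA -dox, a log2 ratio of 0.96 (0.70 to 1.23) for dox without rtTA. Its ratio for rtTA with dox thus also rests on a high no rtTA +dox library. miR-126-5p was called lower for dox in rtTA cells (log2 ratio -1.18, -1.51 to -0.85) and for rtTA with dox (-1.95, -2.27 to -1.63). With the G trend subtracted it was called for the last alone. miR-126-3p, the other and more abundant arm, was not called, at 0.13 and -0.10. It had 111 CPM in rtTA +dox, 102 in rtTA -dox, 120 in no rtTA +dox and 91.4 in no rtTA -dox. The part of endothelial cells in the miR-210 values was not tested. The shRNA level, the joint presence of dox and rtTA, and this library's own preparation cannot be told apart for miR-210. The G content of the mature strands moved with the ratios as well. Across the 372 microRNAs, which are no independent replicates and share both libraries, Pearson's r of the log2 ratio with the percentage of G was 0.72 for dox in rtTA cells and 0.69 for rtTA with dox, against -0.20 for dox without rtTA and -0.0038 for rtTA without dox. A linear trend put a microRNA with the G content of miR-210 at 0.56 for dox in rtTA cells and at 0.62 for rtTA with dox. With the trend subtracted miR-210 was left at 0.26 (rank 92 of 372) and 0.12 (rank 147). Among the 54 microRNAs within 5 percentage points of its G content the median log2 ratio was 0.38 for dox in rtTA cells, with quartiles 0.20 and 0.69, and 10 of them were as high as miR-210 or higher. For rtTA with dox the median was 0.45 and 15 of 54 were as high or higher.

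The other guides stood differently to their G content for dox in rtTA cells. miR-146b, at a log2 ratio of 0.49, lay above most of its 157 neighbours in G content, whose median was -0.17 and of which 13 were as high or higher. With the trend subtracted it was at 0.71, rank 20 of 372, on 195 counts in rtTA +dox and 162 in rtTA -dox. miR-146a, at -0.11, was close to the median of its 164 neighbours, 0.01, and miR-155, at -0.13, lay below the median of its 114 neighbours, 0.14. With the trend subtracted they were at -0.09 and -0.25. For rtTA with dox, miR-146a was then at 0.31 (0.05 to 0.57, rank 96) and miR-146b at 0.19 (-0.11 to 0.49, rank 129). Both lay above miR-210 at 0.12 (rank 147), and miR-155 was at 0.01 (rank 188).

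**Figure D3:**
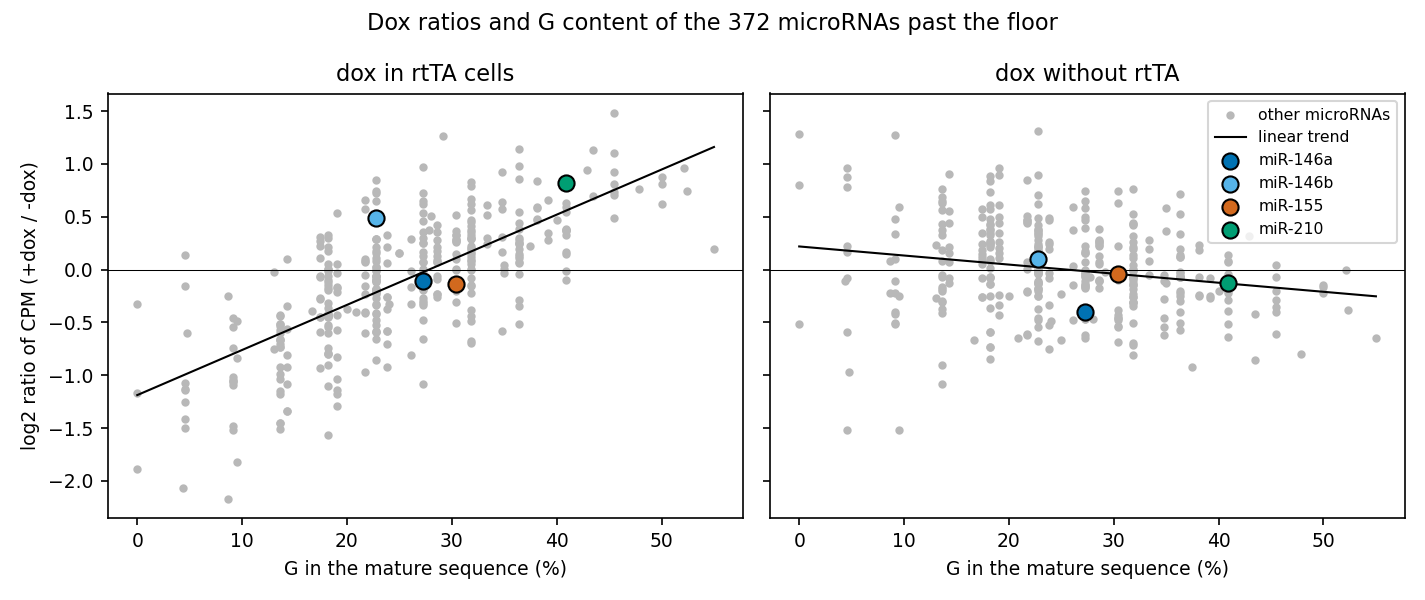
log2 ratio of CPM (+dox over -dox) against the percentage of G in the mature sequence, for dox in rtTA cells (left) and dox without rtTA (right); grey points are the other microRNAs past the floor and the line is the linear trend over all 372. miR-210, at 40.9% G, lies 0.26 above the rising trend on the left and on the trend on the right.

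The dox ratios with and without rtTA come from separate libraries and can be set against each other. For miR-210 the dox log2 ratio was 0.82 with rtTA and -0.13 without, a difference of 0.94 (delta-method 95% interval 0.86 to 1.03), rank 31 of 372. It was 0.25 (0.16 to 0.34) with the G trend subtracted from both. For miR-155 the ratios were -0.13 with rtTA and -0.05 without, a difference of -0.09 (-0.14 to -0.04). For miR-146a they were -0.11 and -0.40, a difference of 0.29 (-0.04 to 0.63), and for miR-146b 0.49 and 0.10, a difference of 0.39 (-0.04 to 0.81). The intervals of miR-210 and miR-155 excluded 0, in opposite directions, and those of the miR-146 pair spanned it. That held for miR-210 under each alternative but not for the others. Under TMM factors miR-155 spanned 0 (-0.08 to 0.02), while miR-146a (0.01 to 0.69) and miR-146b (0.02 to 0.87) excluded it. With the G trend subtracted miR-146b was at 0.63 (0.21 to 1.06), above miR-210. None of the 4 differences was 2-fold or more with an interval excluding 0, as those of 67 of 372 microRNAs (18.0%; 35 with the G trend subtracted) were.

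**Figure D4:**
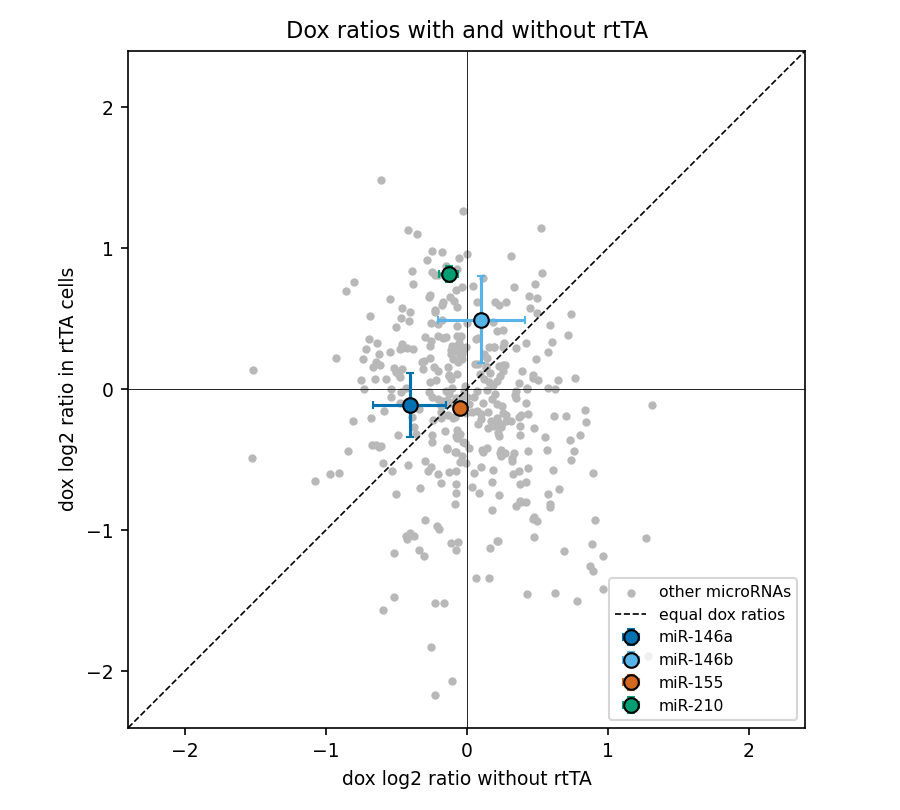
Dox log2 ratio in rtTA cells (vertical) against that without rtTA (horizontal) for the 372 microRNAs past the floor; bars on the coloured points are exact 95% counting intervals and the dashed line marks equal ratios. miR-210 lies above the line at 0.82 and -0.13, and miR-155 just under it near the origin.

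The microRNAs closest to each guide in pattern were found by the Euclidean distance of log2 CPM centred over the 4 libraries. For miR-210 they were miR-196b (distance 0.05), miR-770-3p (0.07) and miR-652 (0.13), against a median distance of 0.82 to all others. All 3 were highest in rtTA +dox, and their G content was 36.4%, 50.0% and 38.1%. For miR-155 they were miR-222 (0.10), miR-24 (0.11) and miR-99b (0.11), all highest in rtTA -dox and lowest in no rtTA +dox, as miR-155 was. For miR-146a they were miR-342-3p (0.11), miR-324-5p (0.12) and miR-380-5p (0.13), all lowest in no rtTA +dox. For miR-146b they were miR-411 (0.12), miR-539 (0.13) and miR-152 (0.14), all lowest in rtTA -dox. With 4 points per pattern these are descriptions of likeness.

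Other microRNAs linked to inflammation or Toll-like receptor signalling had medians close to those of all microRNAs. Of 14 names 12 were listed, all past the floor, and 0 were called in any comparison, against 9.95%, 1.61%, 16.7% and 1.88% of all 372 in the order of comparisons used before. With 12 members that is near the background. Their median log2 ratio was 0.03 for dox in rtTA cells (-0.06 over all 372), -0.07 for dox without rtTA (-0.04), 0.02 for rtTA with dox (-0.07) and -0.07 for rtTA without dox (-0.07). The lowest ratio for dox in rtTA cells was that of miR-223, a myeloid microRNA that is also on the blood list, at -0.99 and 13.6% G, and called lower (-1.02) when the shRNA was counted in the total. miR-132 and miR-212, cut from a shared transcript, were at 0.29 and -0.55 in that comparison and at -0.46 and -0.25 for dox without rtTA. miR-147, induced through Toll-like receptors in macrophages, was at 0.22 for dox in rtTA cells (-0.25 to 0.70), on 78 counts in each library. It was at 0.66 for rtTA with dox (0.10 to 1.23), on 78 counts in rtTA +dox and 43 in no rtTA +dox. For rtTA without dox it was likewise at 0.58 (0.0004 to 1.18), on 78 counts in rtTA -dox and 38 in no rtTA -dox.

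Of the other microRNAs reported to respond to hypoxia none was called higher. Of 17 names 15 were listed, all past the floor. For dox in rtTA cells 0 were higher and 2 lower, against 1.34% higher and 8.6% lower of all 372, with a median log2 ratio of -0.08 (-0.06 over all 372). For rtTA with dox 0 were higher and 1 lower, against 2.42% and 14.2%, with a median of -0.20 (-0.07). In the comparisons without the induced library 0 were called, with medians of -0.14 for dox without rtTA (-0.04) and -0.07 for rtTA without dox (-0.07). The lower ones for dox in rtTA cells were miR-23a (log2 ratio -1.04, interval -1.06 to -1.02) and miR-23b (-1.14, -1.17 to -1.11), each with 19.0% G and near-identical to the other. The lower one for rtTA with dox was miR-26b (-1.19, -1.22 to -1.17; 23.8% G). Under TMM miR-23a was at -0.99 and no longer called. With the G trend subtracted none of these was called, with miR-23a at -0.66, miR-23b at -0.77 and miR-26b at -0.93. The highest for dox in rtTA cells was miR-103 at 0.32, below the 0.82 of miR-210. All 15 had less G than miR-210 (40.9%), and these ratios are before the G trend was subtracted. With the trend subtracted miR-210 was at 0.26 and no longer lay above the whole list. miR-199a-5p (-0.07 before, 17.4% G) was among those then above it.

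**Figure D5:**
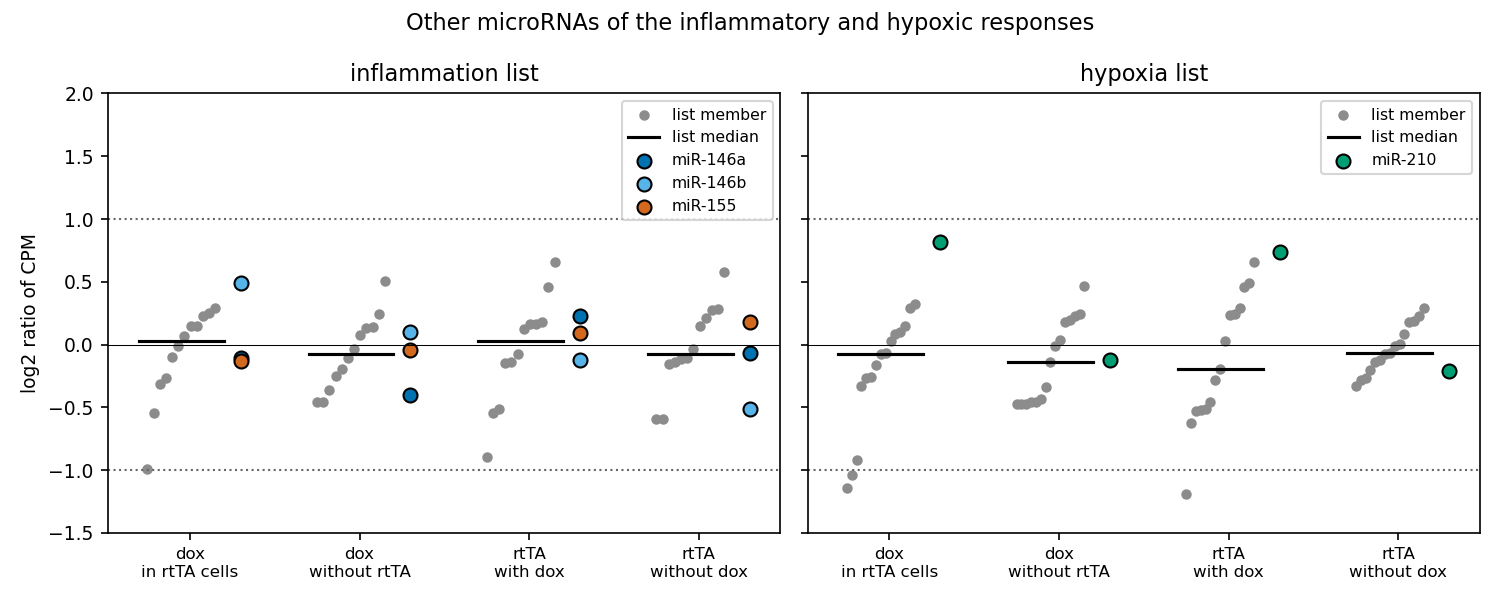
log2 ratio of CPM in the 4 comparisons for the other listed microRNAs of the inflammatory (left, 12) and hypoxic (right, 15) responses; grey points are microRNAs, black lines list medians, coloured points the 4 guides and dotted lines 2-fold. For dox in rtTA cells miR-210 lies above all 15 of the hypoxia list, all of lower G content, before the G trend is subtracted.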

How the data were processed

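Small RNA reads of 4 MEF libraries were used. The authors deposited raw read counts, 1 per microRNA and library, with 1 further row for the shRNA, per the file headers. Not given in the sources used here are the aligner, its settings, the handling of reads that fit several microRNAs, the database release and the build. Unlisted microRNAs were taken as 0. A count of 0 allows up to 0.342 to 0.470 CPM (3 counts).

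CPM were scaled to the endogenous total. The floor of 3.14 CPM is a mean CPM equal to 20 counts in the shallowest library; this left 372 of 508 microRNAs, which hold 99.99% of endogenous counts. Ratio intervals are exact conditional binomial (Clopper-Pearson), those of levels exact Poisson; reads without molecular identifiers are not independent molecules. For the difference of dox ratios, 0.5 was added to every count and the interval came from the delta method. Ratios, intervals and calls were tested on simulated Poisson counts with known fold changes. Those counts held no spread between libraries and no shift with G content, so the check covers counting error alone. No test between groups was run, each being 1 library, and no model with additive terms for dox and rtTA over all 4 libraries was fitted.

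Alternatives were TMM factors (edgeR 4.0.16), DESeq2 1.42.0 size factors, other totals, other floors, a 1.5-fold threshold, a linear trend on the percentage of G subtracted, miR-146a and miR-146b summed, and arms summed. Python 3.11.15, scipy 1.17.1 and R 4.3.3 were used. Sequences came from RefSeq on GRCm38.p6, with all 5 listed members matched, and gene places from GENCODE vM21.

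The named microRNAs are the members, the shRNA, list members that were called, the 3 closest in pattern to each guide and its neighbours in mean CPM; extremes of lists and other list members were named after their values were seen. The members and lists were chosen with earlier results of these data known.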

Additional observations from a re-analysis of the deposited data

Results flagged for a closer look

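miR-210 went opposite ways with dox in the presence and absence of rtTA, each beyond counting error: its log2 ratio was 0.82 with rtTA and -0.13 without. The difference was 0.94 (95% counting interval 0.86 to 1.03), and, with 1 library per group, it was not tested against a spread between replicates. With a linear trend on G content subtracted from both ratios it was 0.25, and the opposite directions were lost, the ratio without rtTA then being 0.0052 (-0.06 to 0.07). Before that subtraction, intervals excluded 0 for 73.1% of all 372 microRNAs for dox in rtTA cells and 67.2% for dox without rtTA. Opposite directions beyond counting error were thus not particular to miR-210. Among others, let-7b (0.49 with rtTA and -0.41 without) and miR-22 (0.25 and -0.11) had them too. How many of the 372 did so was not counted.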

How the results depend on the processing

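No guide strand crossed the 2-fold rule under any alternative scaling, with the G trend subtracted or with strands summed. Of 92 such values of the guides 86 kept their direction. The exceptions were small. With miR-146a and miR-146b summed, the log2 ratio was 0.10 where miR-146a alone had been below 0 (dox in rtTA cells), and -0.19 (dox without rtTA) and 0.075 (rtTA with dox) where miR-146b had the other sign. With the G trend subtracted, miR-210 was at 0.0052 for dox without rtTA, miR-146b at 0.19 for rtTA with dox and miR-146a at 0.0040 for rtTA without dox. The log2 ratio of miR-210 for dox in rtTA cells ran from 0.26 (G trend) to 0.86 (TMM), and for rtTA with dox from 0.12 to 0.81. The differences of the dox ratios kept their direction, but under TMM those of miR-146a (0.35) and miR-146b (0.44) came to exclude 0 and that of miR-155 (-0.03) to span it, and with the G trend that of miR-146b (0.63) excluded 0. The number of microRNAs with a 2-fold difference was 35 with the G trend (15 higher and 20 lower with rtTA, against 21 and 46). The median star shares (76 hairpins with 100 counts) stayed within 1.5 times.

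The number of microRNAs called was 8 with the G trend subtracted (3 higher, 5 lower, against 5 and 32) and 107 at 1.5-fold for dox in rtTA cells. For rtTA with dox these were 21 (8 and 13, against 9 and 53) and 141. For dox without rtTA it was 11 with no floor, 10 with 5 counts, 2 with 100 counts and 57 at 1.5-fold, against 6; the G trend gave 3 higher and 5 lower, against 3 and 3. For rtTA without dox it was 15, 14, 4 and 35 under the same settings, against 7; TMM, DESeq2, the G trend and the total without the 10 most abundant gave 3 higher and 4 lower, against 2 and 5. A lower floor adds microRNAs and a higher one removes them; the cause of the other shifts was not tested. Depth limits miR-146a and miR-146b (162 to 367 counts) and most of all miR-146b*. No paired analysis was possible because each group has 1 library.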
